A study of Mus musculus with 9 samples.

Results

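The genes described here are the receptors and co-receptors of bacterial and viral molecules that mouse phagocytes carry, 10 in all: the lipopolysaccharide co-receptors Cd14 and Ly96 and the Toll-like receptors Tlr1, Tlr2, Tlr3, Tlr4, Tlr6, Tlr7, Tlr9 and Tlr13. They were chosen by name, and every probe of the array annotated to one of these symbols was read, 15 probes of 45281. Of these, 11 probes of 8 genes passed the detection filter (a detection p-value under 0.05 on at least 3 of the 9 arrays), while no probe of Tlr3 or Tlr9 passed. The question was whether the receptors followed Cd14 or followed the macrophage genes between cells carrying NUP98-CDX4, NUP98-CDX1 and EGFP.

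Bone marrow cells of C57/B6 mice aged 6 to 8 weeks, every one given 5-FU beforehand (which removes cycling cells from the marrow), were transfected with NUP98-CDX4, NUP98-CDX1 or the fluorescent protein EGFP and kept in IMDM with 2% serum, SCF and IL-6, cytokines that support early blood cells. The fusions link a stretch of NUP98, a component of nuclear pores, with CDX4 or CDX1, homeobox proteins of the caudal family, and EGFP is the control. Illumina bead arrays with 1 colour measured the total RNA, 3 arrays for each of the 3 groups. The labels do not name the promoter that drives the transgenes, the sorting of the cells, or whether the 3 samples of a group were separate cultures or animals, so the p-values measure only the spread between these samples. The deposited column names carry the day numbers 17, 17 and 20 for NUP98-CDX4 replicates 1 to 3, 28 for all NUP98-CDX1 arrays and 21 for all EGFP arrays. No day number is shared by a pair of groups, so day and transgene cannot be told apart between groups. Of the NUP98-CDX4 arrays, replicate 3 read lowest for Tlr1, Tlr2, Tlr4, Tlr7 and Tlr13, whose differences from EGFP without it were -1.20, -0.97, -0.64, -1.63 and -1.59, with that of Tlr1 alone passing (adjusted p = 0.0143). All 7 general blood cell genes checked were detected on every array, and 8 of 10 stromal and endothelial genes on none. Values are log2 intensities after background correction and quantile normalization. Differences between groups are log2 differences, and "rose" and "fell" are used where limma's p-value, adjusted over all 13160 features tested, was under 0.05. In bulk RNA, fewer cells of a type and less RNA per cell cannot be told apart, and this holds for every difference below.

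Across the groups, the arrays also divided into 2 sets that the labels do not name. A brighter set took in replicates 1 and 3 of NUP98-CDX4, 3 of NUP98-CDX1 and 1 and 2 of EGFP, and a dimmer set the other 4 arrays. Among the 21684 probes detected on no array, Spearman correlations between arrays were 0.73 to 0.77 within the brighter set, 0.43 to 0.46 within the dimmer set and 0.32 to 0.38 between them. Calls of Cd14, Ly96 and the receptors, and the list counts below, are given both ways where they change once array set is a term of the model. Since NUP98-CDX4 and EGFP hold the sets in equal numbers, that term moves only the error of their difference. Each array detected 38.1% to 42.6% of its probes, at a mean signal of 400.6 to 754.3, and the number of arrays limits the precision. Xist RNA, which coats the inactive X chromosome of female cells, was detected on NUP98-CDX4 replicates 1 and 2 and NUP98-CDX1 replicate 1, and on no EGFP array.

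Toll-like receptors are membrane proteins that bind molecules common to microbes and, through the adaptors Myd88 and Ticam1, switch on NF-kB and interferon regulatory factors. Tlr4 recognises lipopolysaccharide, the outer membrane lipid of Gram-negative bacteria, only together with Ly96 (MD-2), and Cd14 hands the lipid to that pair. Tlr2 pairs with Tlr1 or Tlr6 at the cell surface to recognise bacterial lipopeptides, whereas Tlr3, Tlr7, Tlr9 and Tlr13 sense nucleic acids inside endosomes. Monocytes, macrophages and neutrophils are the usual carriers of Cd14, Tlr2 and Tlr4 in blood-forming tissue, and macrophages are among the carriers of Tlr7 and Tlr13.

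Cd14, the co-receptor that hands lipopolysaccharide to Tlr4 and Ly96, rose in NUP98-CDX1 cells and did not pass in NUP98-CDX4 cells. Its log2 intensity was 9.96, 10.06 and 9.71 on the NUP98-CDX4 arrays, 10.73, 10.68 and 10.60 on the NUP98-CDX1 arrays, and 9.80, 9.69 and 9.94 on the EGFP arrays. All NUP98-CDX1 arrays lay above all others, and the NUP98-CDX4 and EGFP arrays overlapped. Against EGFP, Cd14 rose in NUP98-CDX1 cells by 0.86 (95% interval 0.53 to 1.19, 1.81-fold, adjusted p = 0.0314). The difference of NUP98-CDX4 from EGFP was 0.10 (-0.23 to 0.43, adjusted p = 0.903). Between the fusions, Cd14 differed by -0.76 (NUP98-CDX4 minus NUP98-CDX1, adjusted p = 0.116), and by -0.70 with array set in the model, which passed (adjusted p = 0.0192). The rise in NUP98-CDX1 cells was 0.80 with array set in the model (adjusted p = 0.00386). It was 0.86 among brighter-set arrays, with 1 NUP98-CDX1 array, and 0.76 among dimmer-set arrays, with 1 EGFP array. It did not pass when any NUP98-CDX1 or EGFP array or NUP98-CDX4 replicate 1 was left out, where the difference was 0.80 to 0.92 and the adjusted p 0.0514 to 0.145.

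**Figure D1:**
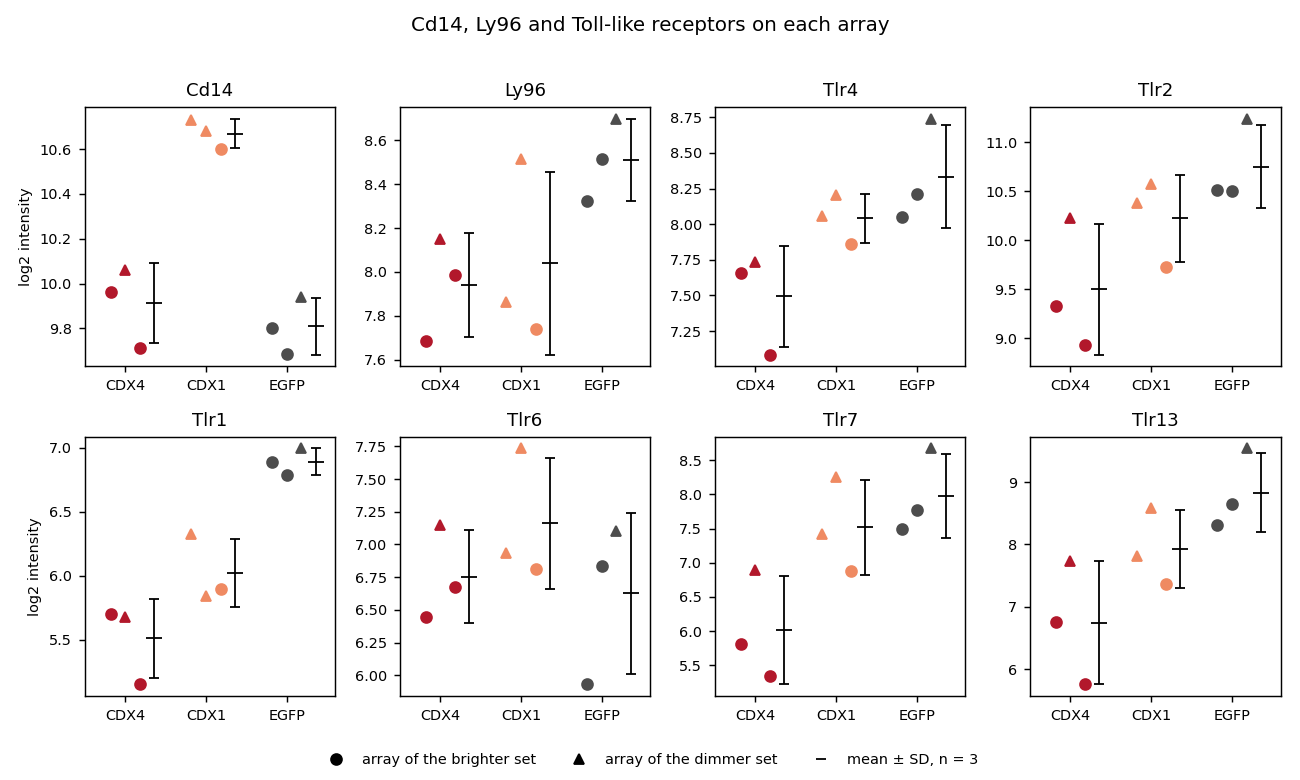
Log2 intensity (vertical axis of each panel, own scale) of the 8 measured genes on every array, with NUP98-CDX4 on the left, NUP98-CDX1 in the middle and EGFP on the right. Circles are arrays of the brighter set, triangles arrays of the dimmer set, and the bar beside each group is the mean ± SD of 3 arrays. Cd14 stands highest in NUP98-CDX1, while Tlr1, Tlr2, Tlr4, Tlr7 and Tlr13 step down with EGFP highest and NUP98-CDX4 lowest.

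The partners of Cd14 in lipopolysaccharide sensing did not rise with it. Tlr4 read 7.66, 7.73 and 7.08 on the NUP98-CDX4 arrays, 8.06, 8.21 and 7.86 on the NUP98-CDX1 arrays, and 8.05, 8.21 and 8.74 on the EGFP arrays. Every NUP98-CDX4 array was below every array of NUP98-CDX1 and EGFP, which overlapped each other. The difference from EGFP was -0.84 in NUP98-CDX4 cells (-1.37 to -0.31, adjusted p = 0.0815) and -0.29 in NUP98-CDX1 cells (-0.82 to 0.24, adjusted p = 0.699). With array set in the model the NUP98-CDX4 difference passed (adjusted p = 0.00627), and the NUP98-CDX1 difference did not (-0.43, adjusted p = 0.173). Tlr4 has another probe detected on all 9 arrays, which read 0.95 lower in NUP98-CDX4 cells than in EGFP cells and passed when each probe was tested as its own feature (adjusted p = 0.0398). Without EGFP replicate 3, the NUP98-CDX1 difference of the tested probe was -0.09. The remaining Tlr4 probe was detected on 1 array only.

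Ly96 gave 7.68, 8.15 and 7.99 in NUP98-CDX4 cells, 7.86, 8.51 and 7.74 in NUP98-CDX1 cells, and 8.32, 8.52 and 8.70 in EGFP cells. NUP98-CDX4 lay below EGFP on every array, and NUP98-CDX1 replicate 2 lay among the EGFP values. The difference from EGFP was -0.57 for NUP98-CDX4 (-1.08 to -0.06, adjusted p = 0.247) and -0.47 for NUP98-CDX1 (-0.99 to 0.04, adjusted p = 0.495). With array set in the model, only that of NUP98-CDX4 passed, narrowly (adjusted p = 0.0492, against 0.0906 for NUP98-CDX1). With Xist in that model as well, the NUP98-CDX4 difference was -0.30 and did not pass (adjusted p = 0.319).

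Among the lipopeptide receptors, Tlr1 fell in NUP98-CDX4 cells, and Tlr2 was lower without passing the test. Tlr1, the partner of Tlr2 for triacylated lipopeptides, read 5.70, 5.68 and 5.15 on the NUP98-CDX4 arrays, 6.32, 5.84 and 5.90 on the NUP98-CDX1 arrays, and 6.89, 6.79 and 6.995 on the EGFP arrays. The groups did not overlap. Tlr1 was 2.61-fold lower in NUP98-CDX4 than in EGFP cells (-1.38, -1.83 to -0.93, adjusted p = 0.00431), a call made in 23 of 24 alternative settings. The other setting, the dimmer set alone, holds 1 array of NUP98-CDX4 and 1 of EGFP and gave -1.32. NUP98-CDX4 replicate 3 was below the detection threshold, so 2 of its 3 arrays measured Tlr1. In NUP98-CDX1 cells the difference was -0.87 (-1.32 to -0.42, adjusted p = 0.0864), and -0.94 with array set in the model, which passed (adjusted p = 0.0172).

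Tlr2, the shared subunit of both lipopeptide receptors, had 9.34, 10.23 and 8.93 in NUP98-CDX4 cells, 10.38, 10.57 and 9.73 in NUP98-CDX1 cells, and 10.51, 10.50 and 11.24 in EGFP cells. The NUP98-CDX4 arrays all lay below the EGFP arrays, and NUP98-CDX1 overlapped both. In NUP98-CDX4 cells the difference from EGFP was -1.25 (-2.06 to -0.43, adjusted p = 0.0928), and in NUP98-CDX1 cells -0.52 (-1.34 to 0.29, adjusted p = 0.655). In each group the brighter-set arrays read lower than the dimmer-set arrays. Both differences passed with array set in the model, at -1.25 (adjusted p = 4.50e-04) and -0.81 (adjusted p = 0.0141). Without NUP98-CDX4 replicate 2, the difference of NUP98-CDX4 was -1.62 and passed (adjusted p = 0.0237). The difference of NUP98-CDX1 was -0.28 without EGFP replicate 3 and -0.275 without NUP98-CDX1 replicate 3.

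Tlr6, the alternative partner of Tlr2 for diacylated lipopeptides, did not follow Tlr1 or Tlr2. It read 6.44, 7.15 and 6.68 in NUP98-CDX4 cells, 6.94, 7.73 and 6.81 in NUP98-CDX1 cells, and 5.93, 6.84 and 7.11 in EGFP cells. All groups overlapped, with the lowest and the third highest values both in EGFP. The differences from EGFP were 0.13 in NUP98-CDX4 (-0.66 to 0.92, adjusted p = 0.965) and 0.53 in NUP98-CDX1 cells (-0.25 to 1.32, adjusted p = 0.637). The sign in NUP98-CDX4 cells turned when NUP98-CDX4 replicate 2 or EGFP replicate 1 was left out (-0.07 and -0.22). The other Tlr6 probe was detected on 4 of 9 arrays and gave -0.19 and 0.30. In the RefSeq table Tlr1 and Tlr6 are neighbours on chromosome 5, with 0 protein-coding genes between them.

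The endosomal receptors that were measured, Tlr7 and Tlr13, gave the lowest values relative to EGFP of all 8 genes in NUP98-CDX4 cells. Tlr7, which binds single-stranded RNA, read 5.82, 6.89 and 5.35 in NUP98-CDX4 cells, 7.41, 8.25 and 6.88 in NUP98-CDX1 cells, and 7.50, 7.77 and 8.67 in EGFP cells. NUP98-CDX4 lay below EGFP on every array and overlapped NUP98-CDX1 by a pair of arrays. Tlr7 fell 3.90-fold in NUP98-CDX4 cells (-1.96, -3.04 to -0.89, adjusted p = 0.0473), with 2 of 3 NUP98-CDX4 arrays above the detection threshold. This call did not pass when NUP98-CDX4 replicate 1 or 3, NUP98-CDX1 replicate 1 or any EGFP array was left out, where the difference ran from -1.62 to -2.203 and the adjusted p from 0.0713 to 0.162, and it passed with array set in the model (adjusted p = 5.21e-04). In NUP98-CDX1 cells the difference was -0.47 (-1.54 to 0.61, adjusted p = 0.753), or -0.83 with array set in the model (adjusted p = 0.0708). Single arrays moved it to -0.12 (without EGFP replicate 3), -0.15 (without NUP98-CDX1 replicate 3), -0.71 (without EGFP replicate 1) and -0.83 (without NUP98-CDX1 replicate 2).

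Tlr13, a receptor of bacterial ribosomal RNA that humans lack, gave 6.75, 7.73 and 5.76 in NUP98-CDX4 cells, 7.82, 8.59 and 7.36 in NUP98-CDX1 cells, and 8.30, 8.65 and 9.54 in EGFP cells. Its NUP98-CDX4 arrays were all below the EGFP arrays, and NUP98-CDX1 overlapped both. The difference was -2.08 in NUP98-CDX4 cells, 4.24-fold lower, and missed the threshold (-3.25 to -0.92, adjusted p = 0.0513). It passed with array set in the model (adjusted p = 0.00144) and without NUP98-CDX4 replicate 2 (-2.58, adjusted p = 0.0173), and in 10 of 24 alternative settings in all. In NUP98-CDX1 cells it was -0.91 (-2.07 to 0.26, adjusted p = 0.584) and passed at -1.28 with array set in the model (adjusted p = 0.0411), and was -0.55 without EGFP replicate 3. Tlr7 and Tlr13 both lie on the X chromosome. On the 3 arrays with Xist, Tlr7 read 5.82 to 7.41 and Tlr13 6.75 to 7.82, inside the 5.35 to 8.67 and 5.76 to 9.54 of the 6 arrays without it. The arrays without Xist include every EGFP array and NUP98-CDX4 replicate 3, which read lowest for both genes. These ranges therefore cannot tell Xist and group apart.

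Tlr3, which binds double-stranded RNA, read 4.45 to 4.79 over the 9 arrays and was detected on 0 of them. Both probes of Tlr9, the receptor of unmethylated CpG DNA, were likewise detected on 0 arrays, at 4.66 to 5.14 and 4.44 to 4.80. These values are at the level of the negative controls, so no difference between groups could be measured. Of the Toll-like receptors outside the group of 10, Tlr5 and Tlr11 were detected on 0 arrays and Tlr12 on 1. Tlr8, detected on 4, passed the filter and is counted with the 12 accessory proteins and further receptors below. Without array set in the model, its difference from EGFP did not pass in either fusion.

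Of the 8 measured genes, 0 rose and 2 fell (Tlr1 and Tlr7) in NUP98-CDX4 cells against EGFP, where 5.36% of all features passed, 2.95% downwards. In NUP98-CDX1 cells 1 rose (Cd14) and 0 fell, against 1.04% of all features in either direction, 0.6% upwards and 0.441% downwards. The model with array set gave 6 falls in NUP98-CDX4 cells (Ly96, Tlr1, Tlr2, Tlr4, Tlr7 and Tlr13), where 7.91% of all features fell. The same model gave 1 rise (Cd14, with 2.96% of features rising) and 3 falls (Tlr1, Tlr2 and Tlr13, with 2.77% of features falling) in NUP98-CDX1 cells. Between the fusions 0 of 8 passed, against 0.144% of all features, and at an unadjusted p under 0.05 there were 5 (Cd14, Tlr1, Tlr4, Tlr7 and Tlr13), all lower in NUP98-CDX4, where 4.3% of all features were lower at that threshold and 0.114% by the adjusted test. The model with array set put Cd14 alone of the 8 lower in NUP98-CDX4 than in NUP98-CDX1 cells, where 1.12% of features were. The median difference of the 8 genes from EGFP was -1.05 in NUP98-CDX4 cells, beside 0.03 for all features, and -0.47 in NUP98-CDX1 cells, beside 0.02. Every NUP98-CDX4 array was below every EGFP array for 6 of the 8 genes, as for 9.34% of all features. In NUP98-CDX1 cells the arrays lay wholly above EGFP for Cd14, as for 9.13% of features, and wholly below for Tlr1, as for 6.03%. Against NUP98-CDX1, every NUP98-CDX4 array was lower for 3 genes (Cd14, Tlr1 and Tlr4), as for 5.38% of features. Because the 2 comparisons share the EGFP arrays, their values are given side by side and not correlated.

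**Figure D2:**
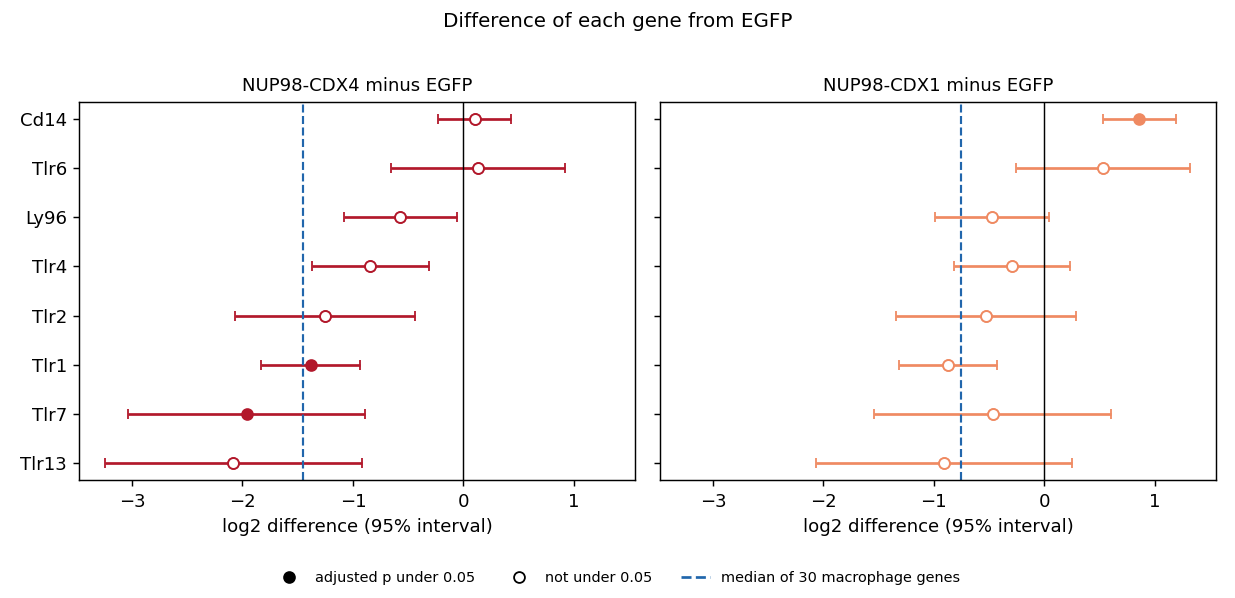
Log2 difference from EGFP (horizontal axis, with 95% intervals) of each gene in NUP98-CDX4 cells on the left and NUP98-CDX1 cells on the right. Filled points had an adjusted p under 0.05, open points did not, and the dashed line is the median of 30 macrophage genes, at -1.45 and -0.75. In the left panel Cd14 and Tlr6 lie at 0.10 and 0.13, right of the dashed line by more than their intervals.

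The macrophage genes, which the receptors are set against, were lower in both fusions. This list held 36 genes of monocytes and macrophages, without Cd14 or any Toll-like receptor, of which 30 were measured. In NUP98-CDX4 cells 20 of 30 fell and 0 rose, with a median of -1.45, and in NUP98-CDX1 cells 4 of 30 fell and 0 rose, with a median of -0.75. These counts were 26 and 17 with array set in the model. Of all features, 2.95% and 0.441% fell, and 7.91% and 2.77% with array set in the model. Adgre1, the macrophage surface marker F4/80, was 8.08 ± 0.46 in NUP98-CDX4, 8.84 ± 0.03 in NUP98-CDX1 and 10.14 ± 0.13 in EGFP cells (SD, n = 3 each), a fall of 2.06 in NUP98-CDX4 (adjusted p = 0.00104). Csf1r, the receptor that sustains macrophages, was 9.07 ± 0.27, 9.60 ± 0.21 and 10.33 ± 0.10 in the same order of groups, and fell by 1.26 in NUP98-CDX4 cells (-1.265, adjusted p = 0.00390). The largest fall in the list was that of Ms4a6d, a tetraspan membrane protein of macrophages, which was 6.38-fold lower in NUP98-CDX4 cells (adjusted p = 0.0153).

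Other falls in NUP98-CDX4 cells took in the Fc receptors Fcgr1 (-2.08, adjusted p = 0.00890) and Fcgr3 (-1.33, adjusted p = 0.00507), the pore protein of phagosomes Mpeg1 (-1.83, adjusted p = 0.00983) and the lipid receptor Trem2 (-1.72, adjusted p = 0.0152). Gpnmb, a lysosomal glycoprotein, fell by 1.55 (adjusted p = 0.00949), and C1qa, a complement subunit, was not detected on any NUP98-CDX4 array and was at least 1.34-fold lower (adjusted p = 0.0186). In NUP98-CDX1 cells the 4 that fell were Adgre1 (-1.30, adjusted p = 0.0281), Ms4a7 (-1.44, adjusted p = 0.0464), the lysosomal protease Ctss (-1.18, adjusted p = 0.0314) and Klf4, a monocyte transcription factor detected on no NUP98-CDX1 array and at least 1.6-fold lower (adjusted p = 0.0281). Single arrays decided some of these calls. In NUP98-CDX4 cells, Ms4a6d missed the threshold without NUP98-CDX4 replicate 1 (adjusted p = 0.0534), Trem2 without EGFP replicate 2 (adjusted p = 0.0663) and C1qa without NUP98-CDX4 replicate 2 or 3 or EGFP replicate 2 or 3 (adjusted p of 0.0550 to 0.0887). In NUP98-CDX1 cells, Adgre1 and Ms4a7 missed it without any NUP98-CDX1 or EGFP array, Ms4a7 also without NUP98-CDX4 replicate 1, Ctss without NUP98-CDX4 replicate 1, NUP98-CDX1 replicate 1 or 2 or any EGFP array, and Klf4 without NUP98-CDX4 replicate 1, any NUP98-CDX1 array or EGFP replicate 1 or 3 (adjusted p of 0.05003 to 0.172). The mean over the 30 genes ran from 7.71 to 8.38 (highest 8.385) on the NUP98-CDX4 arrays, from 8.59 to 8.88 on the NUP98-CDX1 arrays and from 9.30 to 9.70 on the EGFP arrays, so the groups did not overlap.

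Over the 9 arrays, 6 of the 7 other measured genes tracked the mean of the macrophage genes more closely than Cd14. How many of all features did so was not computed, nor was likeness to the means of the neutrophil or mast cell genes. Those means differed between the groups in the same order, as given below, so the likeness is not shown to be particular to macrophage genes. Pearson's r with the macrophage mean was 0.95 for Tlr13, 0.94 for Tlr1, 0.93 for Tlr4, 0.91 for Tlr2, 0.90 for Tlr7 and 0.76 for Ly96. Their r with Cd14 was 0.10, -0.16, 0.19, 0.14, 0.26 and -0.27. Tlr6 went the other way, with r of 0.05 with the macrophage mean and 0.53 with Cd14, and Cd14 itself had r of -0.08 with the macrophage mean. Removing the mean of each array set raised the r with the macrophage mean to 0.99 for Tlr2 and Tlr13 and 0.96 for Tlr7, and left that of Tlr6 at -0.17 and its r with Cd14 at 0.29. The count of 6 held under all 19 alternative settings in which it was recomputed. All of them set a mean over many genes against the probe of Cd14, and a mean carries less noise of single probes. Cd14 also differed little between NUP98-CDX4 and EGFP cells (0.10), so genes lower in NUP98-CDX4 were unlikely to track it. The macrophage list was chosen with earlier results of these data known. The count therefore does not decide which of them a gene follows. These correlations describe 9 arrays of 3 groups that share their group means and array sets, so arrays are not independent points.

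**Figure D3:**
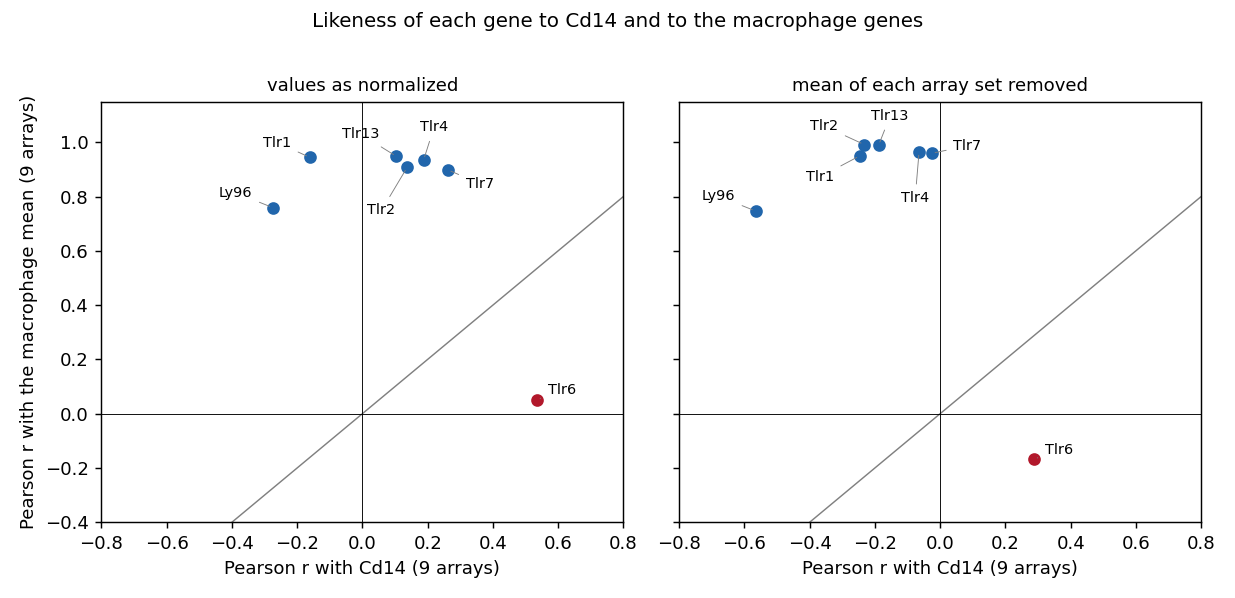
Pearson correlation of each gene with Cd14 (horizontal axis) and with the mean of 30 macrophage genes (vertical axis) over 9 arrays, for the normalized values on the left and after removing each array set's mean on the right. The diagonal marks equal likeness to both. Tlr6 lies below the diagonal in both panels, at 0.53 and 0.05 on the left, and the other 6 genes lie above it.

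Among the receptors themselves, Tlr2, Tlr4, Tlr7 and Tlr13 moved closely together, with r between 0.94 (Tlr2 and Tlr4) and 0.98 (Tlr2 and Tlr13). Tlr1 had r of 0.77 to 0.84 with these 4 and -0.20 with its chromosomal neighbour Tlr6. Tlr6 had r of 0.30 to 0.43 with the same 4 receptors, and -0.21 to 0.04 once the array set means were removed. As with the likeness to the macrophage mean, these are descriptions over 9 arrays.

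Comparisons within each array asked how far each gene departed from Cd14 and from the macrophage mean. These were added after the data had been seen, and each feature was taken as its difference from Cd14, or from the macrophage mean, on the same array and fitted again. Relative to Cd14, 5 of 7 genes were lower in NUP98-CDX4 than in EGFP cells, where 3.78% of all features were lower: Tlr1 by -1.48 (adjusted p = 0.00100), Tlr2 by -1.35 (adjusted p = 0.0286), Tlr4 by -0.94 (adjusted p = 0.0170), Tlr7 by -2.06 (-2.065, adjusted p = 0.0189) and Tlr13 by -2.19 (adjusted p = 0.0201). Ly96 (-0.67, adjusted p = 0.174) and Tlr6 (0.03, -0.73 to 0.78, adjusted p = 0.995) did not pass. Ly96 did pass with array set in the model (adjusted p = 0.0400), making 6 of 7, where 8.63% of all features were lower. The count of 5 became 2 without NUP98-CDX4 replicate 1, and 1 without NUP98-CDX4 replicate 3, EGFP replicate 2 or EGFP replicate 3. The dimmer set holds 1 array of NUP98-CDX4 and 1 of EGFP, so no count is given for it. In NUP98-CDX1 cells 6 of 7 were lower relative to Cd14, all but Tlr6 (-0.32, adjusted p = 0.371), but so were 81.7% of all features, and a count this near the background says nothing about these genes. Between the fusions, Ly96 was higher relative to Cd14 in NUP98-CDX4 than in NUP98-CDX1 cells (0.66, adjusted p = 0.0297), as were 75% of all features, and with array set in the model (0.715, adjusted p = 0.00568) 90.9% were.

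Relative to the macrophage mean, 91.9% of all features were higher in NUP98-CDX4 than in EGFP cells. Tlr1 (-0.04, -0.55 to 0.47, adjusted p = 0.867), Tlr2 (0.09, -0.50 to 0.68, adjusted p = 0.744), Tlr7 (-0.62, -1.40 to 0.15, adjusted p = 0.109) and Tlr13 (-0.74, -1.56 to 0.07, adjusted p = 0.0738) did not pass. Once array set was in the model, Tlr7 and Tlr13 were lower than the macrophage mean (adjusted p = 0.00717 and 0.00139), where 1.12% of features were. Cd14 (1.44, adjusted p = 2.24e-04), Tlr6 (1.47, adjusted p = 0.00118), Ly96 (0.77, adjusted p = 0.0137) and Tlr4 (0.50, adjusted p = 0.0272) were higher than the macrophage mean, as most features were. In NUP98-CDX1 cells Cd14 (1.61, adjusted p = 0.00180) and Tlr6 (1.29, adjusted p = 0.00830) were higher relative to the macrophage mean, where 57.1% of features were, and the other 6 genes did not pass (-0.16 to 0.46). Between the fusions none of the 8 passed relative to the macrophage mean, and with array set in the model Tlr7 did, lower in NUP98-CDX4 cells (-0.65, adjusted p = 0.0336), where 0.96% of all features were.

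Genes with more than 1 measured probe differed in how far their probes agreed. The tested and the other probe of Tlr4 gave -0.84 and -0.95 in NUP98-CDX4 cells and -0.29 and -0.22 in NUP98-CDX1 cells. The other Tlr13 probe, detected on 7 of 9 arrays, read 6.08, 5.11 and 5.43 in NUP98-CDX4 cells, 5.46, 4.66 and 6.45 in NUP98-CDX1 cells, and 6.66, 7.19 and 6.31 in EGFP cells. It gave -1.18 in NUP98-CDX4 (adjusted p = 0.214) and -1.19 in NUP98-CDX1 cells (adjusted p = 0.340), so the step between the fusions seen with the tested probe (-1.18) was 0.01 with this probe. Which transcript region each probe reads was not analysed here.

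**Figure D4:**
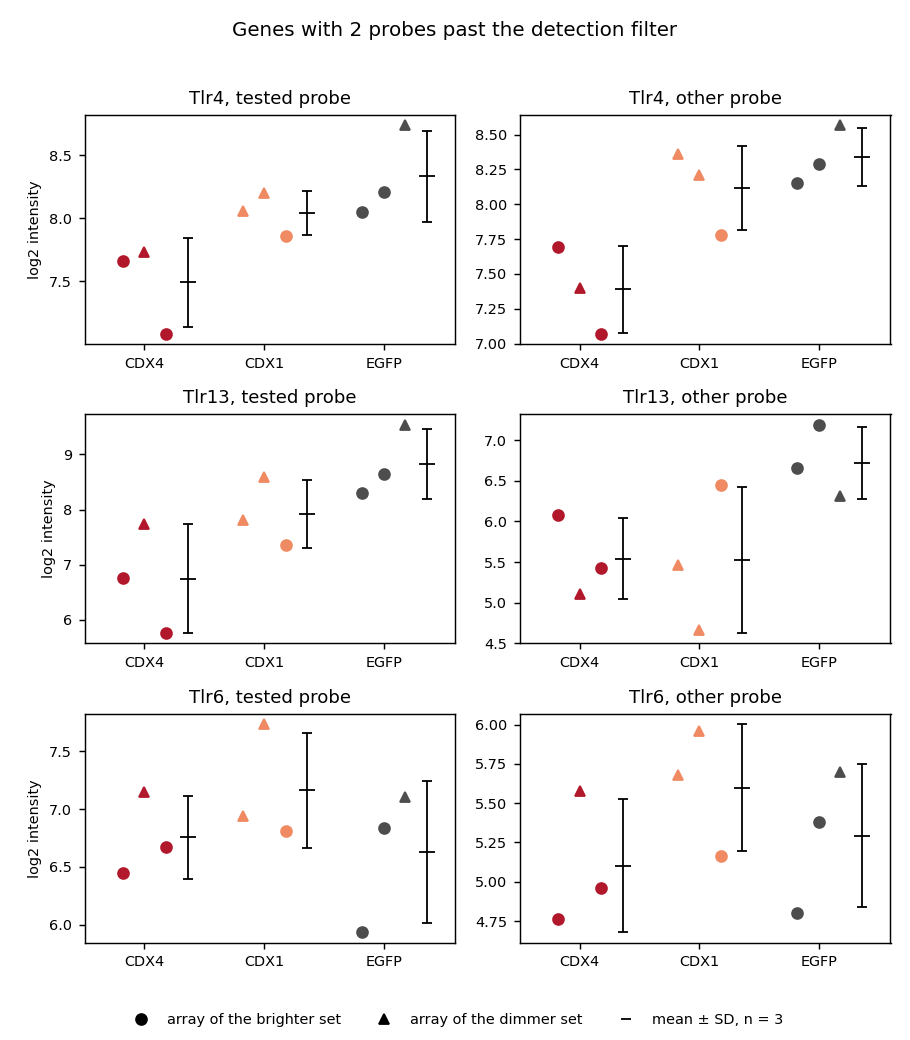
Log2 intensity (vertical axis, own scale in each panel) on every array for the 2 probes that passed the detection filter for Tlr4, Tlr13 and Tlr6, the tested probe on the left. Circles and triangles mark the brighter and dimmer array sets, and bars the mean ± SD of 3 arrays. The 2 Tlr4 probes show the same order of groups, while for Tlr13 the NUP98-CDX1 arrays overlap both other groups with the tested probe (7.36 to 8.59), their mean lying between, and reach down to 4.66 with the other.

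The promoters of genes that moved together are shown with that of Tlr6, which did not, so that their letters can be compared. RefSeq windows (GRCm38.p6) of 250 bases before to 50 after a transcript start were read for 6 of the 10 genes. These were Tlr1, Tlr2, Tlr3, Tlr6, Tlr9 and Tlr13, and Tlr1 and Tlr6 have 2 windows each. Windows of Cd14, Ly96, Tlr4 and Tlr7 were not read. In the lines below, each written 5′ to 3′ along the gene, capitals mark matches to the motifs searched on both strands for PU.1 (GAGGAA), C/EBP (TTGCNNAA, where N is any base) and NF-kB (GGG, any 2 bases, TT, any base, CC).
Tlr1, chr5:64933509-64933808, minus strand: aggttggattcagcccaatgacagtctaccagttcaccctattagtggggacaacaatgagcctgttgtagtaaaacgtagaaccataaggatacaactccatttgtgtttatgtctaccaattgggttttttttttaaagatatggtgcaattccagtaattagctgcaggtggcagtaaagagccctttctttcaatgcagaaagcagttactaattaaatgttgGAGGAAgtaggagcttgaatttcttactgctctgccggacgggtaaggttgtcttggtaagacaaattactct
Tlr2, chr3:83841559-83841858, minus strand: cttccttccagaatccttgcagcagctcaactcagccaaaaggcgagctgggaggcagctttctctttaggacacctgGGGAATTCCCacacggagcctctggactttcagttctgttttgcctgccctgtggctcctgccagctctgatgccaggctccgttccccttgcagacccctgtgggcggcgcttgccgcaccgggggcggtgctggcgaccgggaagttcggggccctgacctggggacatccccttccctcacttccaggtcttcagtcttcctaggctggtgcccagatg
Tlr13, chrX:106143025-106143324, plus strand: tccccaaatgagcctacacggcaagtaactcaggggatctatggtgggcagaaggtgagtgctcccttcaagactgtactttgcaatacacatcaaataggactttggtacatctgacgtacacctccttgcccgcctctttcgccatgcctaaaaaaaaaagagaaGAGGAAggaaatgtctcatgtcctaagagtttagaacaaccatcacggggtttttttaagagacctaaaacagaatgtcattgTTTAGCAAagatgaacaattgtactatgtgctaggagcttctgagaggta
Tlr6, chr5:64959117-64959416, minus strand: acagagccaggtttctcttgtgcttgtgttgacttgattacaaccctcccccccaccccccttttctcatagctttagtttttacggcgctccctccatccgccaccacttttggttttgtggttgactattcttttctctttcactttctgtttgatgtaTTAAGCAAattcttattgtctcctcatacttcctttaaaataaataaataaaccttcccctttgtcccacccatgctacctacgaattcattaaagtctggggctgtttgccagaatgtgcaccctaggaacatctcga
The Tlr1 window holds a PU.1 match starting 23 bases before the start site (position -23), and the Tlr13 window holds a PU.1 match at -83 and a C/EBP match at 1, the start base. The Tlr2 window holds an NF-kB match at -172 that reads the same on both strands, and no PU.1 or C/EBP match. The Tlr6 window holds a C/EBP match at -89 and, not in capitals, overlapping ISRE matches (the interferon response element, GAAA, any 2 bases, GAAA) at -116 and -110. Among the genes detected on no array, the Tlr9 window holds PU.1 matches at -112 and 13, and the Tlr3 window a C/EBP match at -95 and an NF-kB match at -211. The other Tlr1 window, at chr5:64932650-64932949, and the other Tlr6 window hold none of the 4 motifs. Of 32851 RefSeq windows, 28.3% hold the PU.1 letters, 10.8% those of C/EBP, 4.79% those of NF-kB and 3.44% those of ISRE. A match is a string of letters and was not tested as a binding site. PU.1 is the product of Spi1, a transcription factor of myeloid cells, whose RNA read 9.22 ± 0.34 in NUP98-CDX4, 9.24 ± 0.14 in NUP98-CDX1 (9.235) and 9.76 ± 0.01 in EGFP cells and did not pass in either comparison with EGFP (-0.53, adjusted p = 0.160, and -0.52, adjusted p = 0.290). With array set in the model the NUP98-CDX4 difference of Spi1 passed (adjusted p = 0.0421), and that of NUP98-CDX1 did not (-0.47, adjusted p = 0.131).

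The genes whose pattern over the 9 arrays was most like that of Cd14, of 9746 compared, were Sh2b1 (r = 0.97), an adaptor of receptor tyrosine kinases, Rgs8 (0.96), a regulator of G protein signalling, Mtus2 (0.96), the kinase Nuak1 (0.95) and the cell surface proteoglycan Gpc3 (0.94). These genes were picked for likeness to Cd14 on the same 9 arrays, so their differences follow from that choice and are no separate result. Those from EGFP were 0.09, 0.28, 0.32, 0.38 and 0.85 in NUP98-CDX4 cells, none of which passed. In NUP98-CDX1 cells, Rgs8 rose by 1.93 (adjusted p = 0.0132), Mtus2 by 2.09 (adjusted p = 0.0176), Nuak1 by 1.43 (adjusted p = 0.0314) and Gpc3 by 2.95 (adjusted p = 0.0104), while Sh2b1 (0.34, adjusted p = 0.322) did not pass. Rgs8 and Nuak1 averaged 4.74 and 4.58 in EGFP cells, below the lowest detected values of the EGFP arrays (5.24 to 5.45). Background therefore limits the sizes of their rises. The genes most like Tlr1, the receptor with the smallest adjusted p, were Aif1 (0.98), the calcium-binding macrophage protein Iba1, Mtus1 (0.98) and the small GTPase Rhou (0.97). In NUP98-CDX4 cells Aif1 fell by 2.78 (adjusted p = 0.00369), Mtus1 by 1.19 (adjusted p = 0.00314) and Rhou by 1.41 (adjusted p = 0.00968). In NUP98-CDX1 cells their differences were -1.58 (adjusted p = 0.107), -0.89 (adjusted p = 0.0389) and -0.93 (adjusted p = 0.122). The choice by likeness to Tlr1 on the same arrays likewise fixed the direction of these differences.

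Proteins that fold, deliver or cleave Toll-like receptors did not pass, as most features did not. Of 17 such genes and further receptors, 12 were measured, and in neither comparison with EGFP did any pass, while 5 in NUP98-CDX4 and 4 in NUP98-CDX1 cells fell with array set in the model. The list's median was -0.38 in NUP98-CDX4 and -0.43 in NUP98-CDX1 cells. Beside this list and the pathway lists that follow, 5.36% of all features passed in NUP98-CDX4 and 1.04% in NUP98-CDX1 cells. With array set in the model, 7.91% of all features fell in NUP98-CDX4 cells, and 2.96% rose and 2.77% fell in NUP98-CDX1 cells. Unc93b1, the chaperone that takes nucleic acid receptors to endosomes, was 11.24 ± 0.09 in NUP98-CDX4, 11.07 ± 0.20 in NUP98-CDX1 and 11.65 ± 0.10 in EGFP cells (SD, n = 3 each), with adjusted p of 0.198 and 0.126, and it fell in NUP98-CDX1 cells with array set in the model (-0.56, adjusted p = 0.0377). Lgmn, an endosomal protease that cleaves such receptors, was 9.11 ± 0.83, 10.06 ± 0.60 and 10.97 ± 0.69 in the same order of groups, -1.86 in NUP98-CDX4 (adjusted p = 0.0614) and -0.92 in NUP98-CDX1 cells (adjusted p = 0.539), and fell in both with array set in the model (adjusted p = 5.27e-05 and 9.47e-04). Ly86, the partner of the Toll-like relative Cd180, gave -1.64 (adjusted p = 0.0784) and -1.51 (adjusted p = 0.192), and the protease Ctsb -0.59 (adjusted p = 0.156) and -0.58 (adjusted p = 0.287). The model with array set put Ly86 past the threshold in both fusions (adjusted p = 0.0169 and 0.0359) and Ctsb in NUP98-CDX4 cells (adjusted p = 0.0128).

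Most of the signalling chain below the receptors did not pass, and neither did most features. Of 23 measured adaptors, kinases and interferon regulatory factors, 3 fell and 0 rose in NUP98-CDX4 cells (median -0.20), and none passed in NUP98-CDX1 cells (median -0.06). With array set in the model 5 fell in NUP98-CDX4 cells, the same 3 and Irak2 (-0.50, adjusted p = 0.0130) and Ticam2 (-0.63, adjusted p = 0.0182), and 1 fell in NUP98-CDX1 cells, Irf5 (-0.94, adjusted p = 0.0114). The 3 were Irf7, which drives interferon genes downstream of endosomal receptors, Irf5, which drives inflammatory cytokine genes, and the kinase Ikbke. Irf7 was 6.66 ± 1.12 in NUP98-CDX4 and 9.65 ± 0.41 in EGFP cells (7.98-fold lower, adjusted p = 0.0102), Irf5 7.53 ± 0.36 and 8.93 ± 0.54 (-1.40, adjusted p = 0.0225), and Ikbke 7.90 ± 0.25 and 8.77 ± 0.26 (-0.87, adjusted p = 0.0335). Irf5 missed the threshold without NUP98-CDX4 replicate 1 or 3 or EGFP replicate 1 (adjusted p of 0.0569 to 0.0905), and Ikbke when any array but NUP98-CDX4 replicate 1 or NUP98-CDX1 replicate 3 was left out (adjusted p of 0.0538 to 0.109). In NUP98-CDX1 cells the 3 genes gave -0.88, -0.74 and -0.06 (adjusted p = 0.593, 0.364 and 0.915). Myd88, the adaptor of nearly all these receptors, was 12.30 in NUP98-CDX4, 12.37 in NUP98-CDX1 and 12.55 in EGFP cells and did not pass (adjusted p = 0.754 and 0.782).

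Of 14 measured inhibitors of the pathway, Tnfaip3 (A20), the deubiquitinase that ends NF-kB signalling, rose in NUP98-CDX4 cells, to 7.35 ± 0.46 against 6.16 ± 0.35 in EGFP cells (2.29-fold, adjusted p = 0.0268), and 0 fell. It missed the threshold without NUP98-CDX4 replicate 1 or 2 or EGFP replicate 1 or 2 (adjusted p of 0.0724 to 0.119). In NUP98-CDX1 cells Tnfaip3 gave 1.00 (adjusted p = 0.119) and none of the 14 passed. Sigirr, a receptor-like brake, gave 0.76 and 0.86 in NUP98-CDX4 and NUP98-CDX1 cells (adjusted p = 0.0521 and 0.0781), and Irak3, the inactive kinase of macrophages, -0.63 and -0.56 (adjusted p = 0.0887 and 0.240). With array set in the model, Tnfaip3 and Sigirr rose and Irak3 fell in NUP98-CDX4 cells (adjusted p = 0.00237, 0.0110 and 0.00414) and in NUP98-CDX1 cells (adjusted p = 0.0341, 0.0260 and 0.0496).

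Genes that Toll-like receptor signalling is known to induce went both ways. Of 21 measured, 2 rose and 3 fell in NUP98-CDX4 cells, where 5.36% of all features passed. In NUP98-CDX1 cells 2 rose and 2 fell, where 1.04% of all features passed. Once array set was in the model, 4 rose and 7 fell in NUP98-CDX4 cells, and 4 rose and 2 fell in NUP98-CDX1 cells. The additional calls were rises of Tnf and Tnfsf9 and falls of Acod1, Cd86, Cxcl10 and Cd40 in NUP98-CDX4 cells, and rises of Ccl4 and Cxcl2 in NUP98-CDX1 cells. Il12a, the subunit p35 of interleukin 12, was 11.32 ± 0.49 in NUP98-CDX4, 10.48 ± 0.28 in NUP98-CDX1 and 7.89 ± 0.32 in EGFP cells, a rise of 3.43 (adjusted p = 2.59e-04) and 2.59 (adjusted p = 0.00311). The chemokine Ccl3 was 11.46 ± 0.42, 11.93 ± 0.17 and 9.57 ± 0.37 in the same order, a rise of 1.88 (adjusted p = 0.00290) and 2.35 (adjusted p = 0.00311). Lcn2, an iron-binding defence protein, fell by 1.96 in NUP98-CDX4 (adjusted p = 7.16e-04) and by 1.12 in NUP98-CDX1 cells (adjusted p = 0.0281), and it is also a neutrophil granule gene. The monocyte attractant Ccl2 was at least 3.14-fold lower in NUP98-CDX4 cells, where no array detected it (adjusted p = 2.59e-04), and fell by 1.34 in NUP98-CDX1 cells (adjusted p = 0.00585). The acute phase gene Saa3 fell in NUP98-CDX4 cells by 1.74 (adjusted p = 0.0382), and gave -0.51 in NUP98-CDX1 cells (adjusted p = 0.695). Its fall missed the threshold without NUP98-CDX4 replicate 1 or 3, NUP98-CDX1 replicate 1 or 2 or EGFP replicate 1 or 2 (adjusted p of 0.0611 to 0.151), as did that of Lcn2 in NUP98-CDX1 cells without NUP98-CDX4 replicate 1, NUP98-CDX1 replicate 2 or any EGFP array (adjusted p of 0.055 to 0.138).

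**Figure D5:**
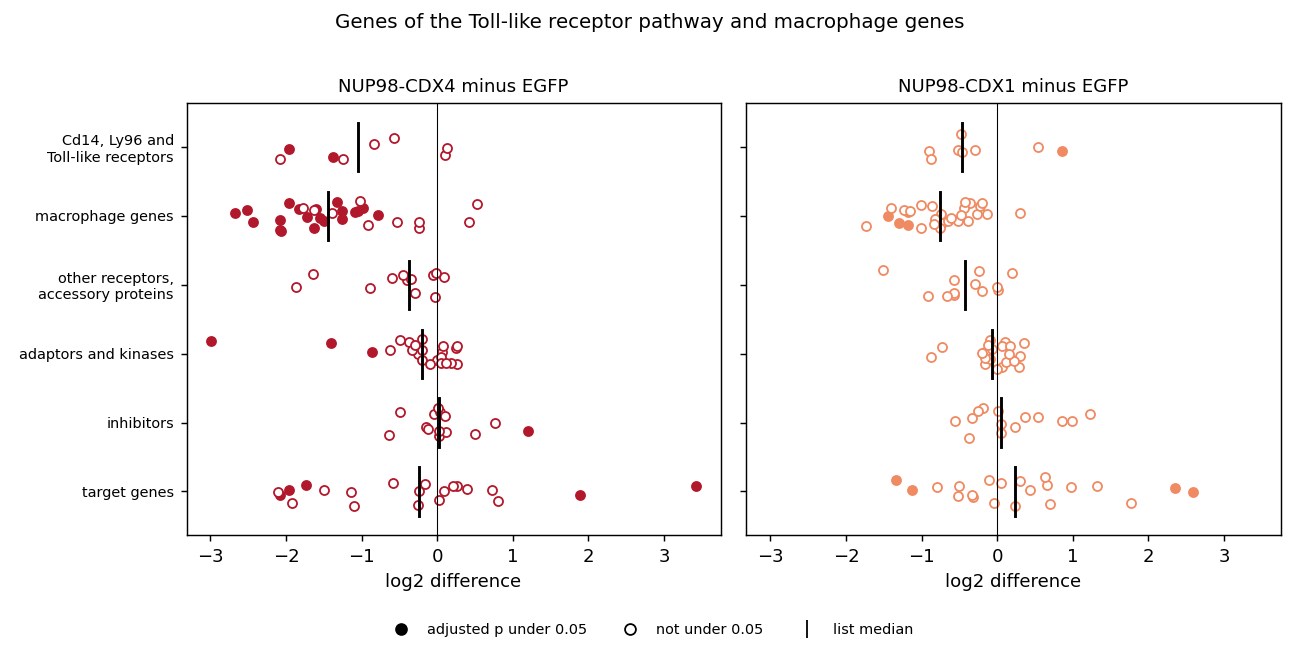
Log2 difference from EGFP (horizontal axis) of every measured gene of 6 lists (rows) in NUP98-CDX4 cells on the left and NUP98-CDX1 cells on the right. Filled points had an adjusted p under 0.05, open points did not, and vertical bars are list medians. The macrophage genes lie furthest left in the NUP98-CDX4 panel (median -1.45), with the receptors next (-1.05) and the inhibitors at 0.02.

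Markers of other cell types moved with the groups as well. The mean of 16 measured neutrophil genes ran from 8.80 to 9.46 on the NUP98-CDX4 arrays, from 10.25 to 10.39 on the NUP98-CDX1 arrays and from 11.36 to 11.62 on the EGFP arrays, and 11 and 6 of them fell in NUP98-CDX4 and NUP98-CDX1 cells. The mean of 10 mast cell and basophil genes ran from 7.03 to 7.11, from 8.15 to 8.53 and from 9.58 to 10.05 in the same order of groups, and 8 and 4 fell. With array set in the model, 12 and 7 neutrophil genes and 9 and 4 mast cell and basophil genes fell. That model also gave 1 neutrophil gene that rose in NUP98-CDX4 cells. No neutrophil gene on the array was at background throughout, and Cd163, Maf and Adgre4 of the macrophage list were detected on no array. Cd3d, Cd3e, Cd3g, Cd8a and Ncr1 of the T and NK cell list and Blnk and Pax5 of the B cell list were likewise detected on none. The 1 measured gene of the T and NK cell list, the granule gene Nkg7, ran from 12.2 to 12.57 in NUP98-CDX4, from 12.14 to 12.4 in NUP98-CDX1 and from 10.88 to 11.14 in EGFP cells, and rose in both fusions (1.35, adjusted p = 0.00133, and 1.24, adjusted p = 0.00834). Of 11 measured stem and progenitor genes, Hoxa9 (2.90, adjusted p = 0.00156), Meis1 (1.78, adjusted p = 0.00123) and Sox4 (1.05, adjusted p = 0.0252) rose in NUP98-CDX4 cells, and Hoxa9 in NUP98-CDX1 cells (2.13, adjusted p = 0.0249). With array set in the model, 3 of the 11 rose in NUP98-CDX4 and 2 in NUP98-CDX1 cells. The mean of the 11 genes ran from 9.11 to 9.32 in NUP98-CDX4, from 8.7 to 9.29 in NUP98-CDX1 and from 8.43 to 8.56 in EGFP cells. The part of these cell types in the differences of Cd14 and the receptors was not tested.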

How the data were processed

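Total RNA of 9 samples was measured on single-colour Illumina bead arrays. Per the labels, the intensity values are GenomeStudio probe signals that the authors deposited without normalizing them, beside a detection p-value per probe, also used as deposited (GenomeStudio's version: not given in the sources used here). Processed intensities of unstated normalization, scale and centring, with column medians of 84.28 to 85.81, served as an alternative. They matched their own raw columns best (Spearman 0.991 or more, 0.953 or less with other columns).

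With limma 3.58.1 (R 4.3.3), neqc corrected and quantile normalized the signals, inferring negative controls from detection p-values, with an offset of 16, and log2 was taken. The platform gave 34885 probes a single symbol, 18 several and 10378 none. Entrez numbers linked 34807 of them to RefSeq genes. The brightest of the 19472 probes past the filter stood for a gene. A limma model with group means was fitted to 13160 features (10018 named genes), with Benjamini-Hochberg adjustment. It was tried on simulated data with independent noise and no array sets, which cannot show how it performs where such sets exist. Where 0 of 3 arrays of a group detected a gene, its fold is a bound, the bright group's mean over the higher of the dim probe's own value and the lowest detected signal. Named are the 10 genes, in each list the 4 of smallest adjusted p or up to 12 that passed, the 5 genes most like Cd14 and the 3 most like the receptor of smallest adjusted p. Spi1, Myd88, Ticam2, Nkg7, Hoxa9, Meis1, Sox4, the further target genes called with array set and the undetected markers were added with their values known. Calls of these added genes were not examined with single arrays left out. Dusp1 and other genes of the remaining cell type lists are left out, and neutrophil and mast cell genes are given as counts. The genes and lists were chosen with earlier results of these data known. Replicate numbers did not pair the arrays: correlations between equal numbers ran from -0.79 to 0.67, and 2 of 9 arrays correlated best with their own number. Alternatives changed normalization, offset, filter, probe, variance model, array set, Xist, the samples fitted and each array left out.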

Additional observations from a re-analysis of the deposited data

Results flagged for a closer look

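Cd14 differed between the fusions, both of which were compared with the same EGFP arrays, once array set was a term of the model: NUP98-CDX4 minus NUP98-CDX1 was -0.698 (adjusted p = 0.0192), higher in NUP98-CDX1 on 3 of 3 arrays. Without that term it was -0.76 and missed the threshold (adjusted p = 0.116). No other of the 8 genes passed between the fusions in either model when each was tested by itself.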

How the results depend on the processing

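Of 24 settings, the fall of Tlr1 in NUP98-CDX4 cells passed in 23, that of Tlr7 in 13 and the rise of Cd14 in NUP98-CDX1 cells in 11, with their signs kept in all 24. Fits within an array set leave 1 array in at least 1 group, so counts of the 8 genes in them are left out below. Of the 8 genes, 1 was called in NUP98-CDX1 cells. This became 0 with median scaling, with the replicate number as a replicate block and with only the groups compared. It became 4 with array set in the model, 3 with array set and Xist together (added after the data were seen), and 0 to 1 with an array left out. With Xist as a covariate it stayed 1, but Cd14 missed the threshold (adjusted p = 0.0721) and Tlr1 passed (adjusted p = 0.0280). In NUP98-CDX4 cells 2 were called. This became 5 with the authors' processed values and with array set and Xist together, 6 with array set in the model, and 1 to 4 with an array left out (4 without NUP98-CDX4 replicate 2). It became 3, with Tlr13 added, with quantile normalization alone, an offset of 50, median scaling, detection on all 3 arrays of a group, and the trended robust variance model. It became 1 with no detection filter, with the replicate block, with Xist as a covariate and with only the groups compared. Between the fusions, 0 became 1 with the processed values, with array set in the model and with array set and Xist together. Over all features, calls numbered 137 in NUP98-CDX1 cells (5 to 754), 706 in NUP98-CDX4 cells (118 to 2206) and 19 between the fusions (0 to 193). Calls over all features thus moved with the setting too. With array set in the model, 7.91% of all features fell in NUP98-CDX4 cells, against 2.95% without it. The share in each other setting is not given beside the counts of the 8 genes. A larger count is therefore no result about these genes by itself. Some small differences turned sign and passed in no setting. Cd14 in NUP98-CDX4 cells was -0.0253 with Xist as a covariate, and Tlr6 ran from -0.217 to 0.369 with an array left out. Between the fusions, Ly96 was 0.0174 with array set in the model, 0.0946 in the brighter set, 0.199 with array set and Xist together and -0.247 to 0.139 with an array left out, and Tlr6 was 0.0172 with array set and Xist together. The cause of these changes was not tested. Signals near background limit Tlr1, Tlr7 and the further probes of Tlr6 and Tlr13.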
